A study of Homo sapiens with 4 samples.

Results

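The complement components and regulators examined here were 9 of the 27685 genes in the deposited transcript tables. They were taken by gene symbol, with no threshold on a measured value but with earlier results of these data known: CFB, C3, C1R, C1S, CFI, CD46, CD55, CD59 and SERPING1. RNA was measured by sequencing in HT-29 cells, an established human colorectal adenocarcinoma line. Cells of genotype WT carried a control vector, and cells of genotype TRIM40 overexpression stably expressed TRIM40 with an N-terminal Myc tag (Myc-TRIM40). The study's methods give pMSCV as the vector of the TRIM40 construct and describe retroviral transduction with puromycin selection in general, without naming the route for these cells, and the labels give the treatment of all samples as None. Each condition had 2 libraries, 1 from each of 2 independent experiments, and p-values therefore measure the spread between these samples only. In the main fit, which has the experiment as a block, this is the spread between the differences within the 2 experiments. That fit left 1 residual degree of freedom per gene (median). The question addressed here is how expression of TRIM40, an E3 ubiquitin ligase, goes with the transcripts of complement genes.

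Complement is a cascade of plasma proteins that tags and lyses microbes. The classical pathway starts with the C1 complex, whose proteases C1r and C1s are held in check by the C1 inhibitor made from SERPING1. The alternative pathway amplifies deposition of C3 through factor B, the product of CFB. Host cells are shielded by the membrane proteins CD46, CD55 and CD59 and by the plasma protease factor I, which needs a cofactor such as CD46 to cleave C3b. Epithelial cells of the gut carry the membrane regulators and can make several of the soluble components, whose transcription is known to respond to interferons and other cytokines.

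Total estimated reads ranged from 60954602 to 67424698 per library. TRIM40 had 0 reads in both control libraries, 272646 reads in Myc-TRIM40 of experiment 1 and 110665 reads in Myc-TRIM40 of experiment 2, as the labels have it. All 8 colon epithelium markers, led by KRT8, were at or above 1 FPKM (reads scaled by transcript length and library size) in every library. Among markers of other cells, the summed level of 5 hepatocyte genes was between 0.548 and 1.07 FPKM with ALB and FGB at 0 reads, that of 5 fibroblast genes between 0.879 and 1.36 FPKM with COL1A2, COL3A1 and DCN at 0, and that of 4 endothelial genes between 0.0679 and 0.134 FPKM with CDH5 and KDR at 0. The 6 leukocyte genes summed to between 1365 and 1869 FPKM, with CD3E and CSF1R at 0 and LYZ, which reached 1860 FPKM, as the largest. Of the 6, 3 were at or above 1 FPKM in every library.

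The upstream sequences were searched for the motifs by which interferon-activated factors are known to bind DNA, and those of CFB, C1R and CD55 are shown because they differ in their matches. They are the 250 bases before the start in RefSeq on GRCh38.p14, written 5' to 3' on the strand of the gene, with matches in capitals to the interferon-stimulated response element (ISRE, searched as GAAANNGAAA) and to the interferon-gamma activated site (GAS, searched as TTCNNNGAA). Windows of 300 bases, 250 before and 50 after the start, were searched on both strands, all matches in these genes lay before the start, no matches overlapped in these windows, and a match describes letters only. CFB lies on the plus strand at chr6:31945845-31946094, C1R (the second of its windows) on the minus strand at chr12:7091894-7092143, and CD55 on the plus strand at chr1:207321428-207321677.
CFB: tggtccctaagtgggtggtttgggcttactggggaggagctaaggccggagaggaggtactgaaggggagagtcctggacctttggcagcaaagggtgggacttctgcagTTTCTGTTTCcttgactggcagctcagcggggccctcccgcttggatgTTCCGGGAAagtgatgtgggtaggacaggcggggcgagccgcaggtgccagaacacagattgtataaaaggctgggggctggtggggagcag
C1R: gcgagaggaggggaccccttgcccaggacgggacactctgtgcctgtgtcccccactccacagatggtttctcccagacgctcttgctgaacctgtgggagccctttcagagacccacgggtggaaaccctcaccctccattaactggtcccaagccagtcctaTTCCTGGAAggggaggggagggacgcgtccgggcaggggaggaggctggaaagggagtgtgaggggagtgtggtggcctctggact
CD55: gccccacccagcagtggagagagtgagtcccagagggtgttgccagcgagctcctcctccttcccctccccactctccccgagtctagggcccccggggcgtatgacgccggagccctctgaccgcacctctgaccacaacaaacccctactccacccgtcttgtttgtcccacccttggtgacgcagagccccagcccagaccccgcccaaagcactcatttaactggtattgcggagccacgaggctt

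CFB held an ISRE match, read on the opposite strand, from -140 to -131 relative to the start and a GAS match from -92 to -84. A match to the NF-kappaB motif ran from -112 to -103. C1R held a GAS match from -86 to -78 in its second window and none in its first. CD59 held a GAS match from -128 to -120 in its first window. The overlapping second window of CD59 held the same site, from -184 to -176, and its windows 3 and 4 held none. The windows of CD46, CD55 and CFI held no match to these letters, and C3, C1S and SERPING1 had no window in the table, which matched 6 of the 9 genes with 11 windows. Of 35116 promoter windows of the same length in the whole table, 3.57% held the ISRE letters, 7.66% the GAS letters and 11.3% the NF-kappaB motif. These shares are per window, and a gene can have several windows.

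On the per-length FPKM scale the 9 genes fell into a high group of membrane regulators, CFB in between, and components at the edge of detection. CD46, CD55 and CD59 together made up 98.8% and 99.2% of the summed FPKM of the 9 genes in the control libraries of experiments 1 and 2, and 93.5% and 98.6% in the Myc-TRIM40 libraries. CFB made up 1.14%, 6.01%, 0.736% and 1.28% in control and Myc-TRIM40 of experiment 1 and control and Myc-TRIM40 of experiment 2. Ordered by mean FPKM over the 4 libraries, CD46 (88.5) came first, then CD59 (36.3), CD55 (25.9), CFB (3.74), C1R (0.145), C1S (0.0953), C3 (0.0626), SERPING1 (0.0235) and CFI (0). The libraries of CD46 lay above all those of CD59, and those of CFB lay between the lowest of CD55 and the highest of C1R. The levels of CD59 and CD55 overlapped, as did those of C1R, C1S, C3 and SERPING1, so these neighbours were not separated beyond the spread of their libraries.

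**Figure D1:**
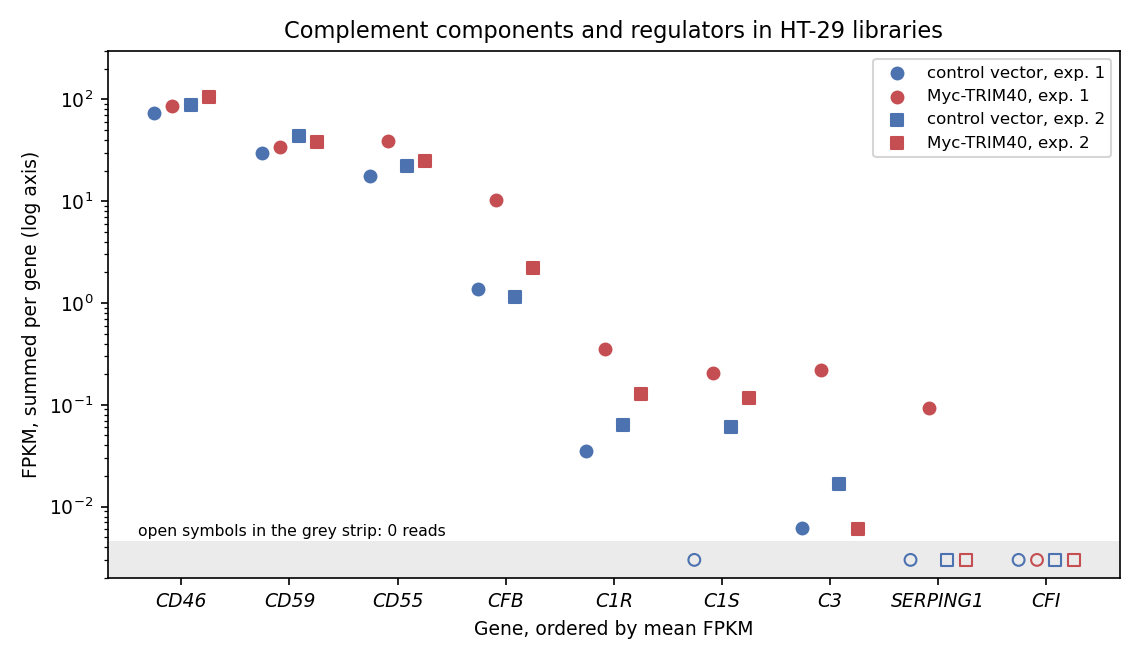
FPKM of each of the 9 genes (log axis) in each library, with colour for the condition and shape for the experiment, and open symbols in the grey strip for 0 reads. The membrane regulators sit above 10 FPKM in every library, and CFB reaches 10.2 FPKM in Myc-TRIM40 of experiment 1 against 1.38 FPKM in its control.

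Of the 9 genes, 6 passed the filter on low counts, and edgeR's quasi-likelihood test called 0 of them in either direction (adjusted p under 0.05). Across the 14868 genes tested, 0.0404% were called higher and 0.0202% lower. With an unadjusted p under 0.05, edgeR had CFB and C1R, 2 of 6, against 4.54% of all genes tested. DESeq2 called 1, CFB, at an adjusted p of 0.0145, where it called 0.268% of the 16401 genes with an adjusted p higher and 0.0549% lower. The median log2 fold change of the 6 was 1.19 and that of all genes tested 0.04. However, C1R passed the filter only through its reads in the Myc-TRIM40 libraries, and C1S partly through them. The counts over the genes that passed, including the next, and the median are therefore descriptions only. Both Myc-TRIM40 libraries lay above both control libraries on FPKM for CFB, C1R, C1S and CD55, and none of the 6 lay below, where 15.2% of all tested genes lay above and 6.48% below.

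CFB encodes factor B, the serine protease of the alternative pathway C3 convertase. Its single transcript (gene 629, chr6:31913721-31919861, hg19 per the submitters' processing notes, as for the other genes) had 228 reads in control and 1687 in Myc-TRIM40 of experiment 1, against 210 and 370 in experiment 2. Its levels were 1.38 and 10.2 FPKM in experiment 1, and 1.15 and 2.19 FPKM in experiment 2. Both Myc-TRIM40 libraries were higher than both control libraries. The control libraries differed 1.13-fold from each other and the Myc-TRIM40 libraries 4.68-fold, so the means were 1.27 ± 0.167 FPKM (SD, n = 2) for control vector and 6.21 ± 5.69 FPKM for Myc-TRIM40.

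As a ratio of normalized reads, CFB was 7.20-fold higher with Myc-TRIM40 in experiment 1 (95% exact counting interval 6.27 to 8.31) and 1.75-fold higher in experiment 2 (1.47 to 2.08). These intervals cover counting error only, and they did not overlap. In edgeR the log2 fold change was 1.84 (standard error 0.44), with an unadjusted p of 0.00293 and an adjusted p of 0.543. The same fold change in DESeq2, 1.81, had the adjusted p of 0.0145 given above, and over all alternatives the adjusted p of CFB in edgeR, DESeq2 and limma ranged from 0.0145 to 1.00. CFB is among the genes that the study listed for their change in this experiment, so its direction here is not independent evidence. In bulk RNA, a change in the number of expressing cells and a change in RNA per cell cannot be told apart. The amount of TRIM40 RNA was also higher in Myc-TRIM40 of experiment 1 than of experiment 2, and its part in the difference between experiments was not tested.

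**Figure D2:**
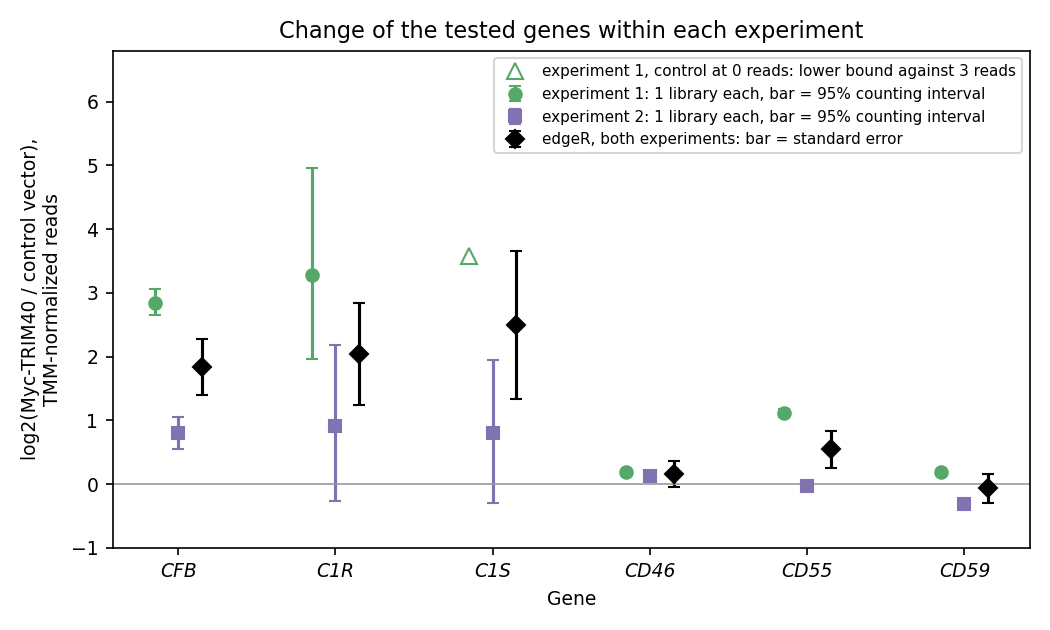
The log2 ratio of Myc-TRIM40 to control vector on normalized reads for the 6 tested genes, as circles for experiment 1 and squares for experiment 2 with 95% counting intervals, and as diamonds for the edgeR estimate over both experiments with its standard error. The open triangle, marked as a lower bound, is the ratio of C1S in experiment 1 against 3 control reads, without its counting error. CFB, C1R and C1S sit above 0 in both experiments, while CD55 is at 1.11 in experiment 1 and -0.02 in experiment 2.

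The proteases of the C1 complex were near the limit of detection. C1R (gene 715, chr12:7187515-7245043) had 5 reads in control and 50 in Myc-TRIM40 of experiment 1 and then 10 and 19 in experiment 2, or 0.0351, 0.352, 0.0636 and 0.129 FPKM. C1S (gene 716, chr12:7167965-7178335), its neighbour, had 0 and 37 reads in experiment 1 against 12 and 21 in experiment 2, or 0, 0.204, 0.0612 and 0.116 FPKM. For both genes the Myc-TRIM40 libraries were above the control libraries, at levels where a few reads decide the value.

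In experiment 2, where each library had reads, the normalized ratio was 1.88 for C1R (interval 0.833 to 4.53) and 1.73 for C1S (0.815 to 3.87), and both intervals include 1. In experiment 1 the ratio of C1R was 9.74 (3.91 to 31.3). C1S was 12.0-fold higher there against a floor of 3 reads for its control library, and its exact counting interval began at 9.29. The edgeR log2 fold change of C1R was 2.04 (standard error 0.80, unadjusted p = 0.0322, adjusted p = 0.888), and that of C1S, which depends on the prior count given to its control library at 0, was 2.49 (1.16, adjusted p = 0.888). All reads of C1S were assigned to its transcript variant 1, 1 of 3 in the table.

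C3, the central component of all complement pathways, and the inhibitor gene SERPING1 did not pass the low-count filter of edgeR. Without that filter edgeR gave adjusted p of 0.805 for C3 and 0.804 for SERPING1, and DESeq2 gave 1.00 for each. C3 (gene 718, chr19:6677846-6720693) had 3 and 72 reads in experiment 1 against 7 and 3 in experiment 2, or 0.00623, 0.221, 0.0168 and 0.00607 FPKM. The ratio was 23.4 in experiment 1 (7.68 to 116) and 0.425 in experiment 2 (0.0709 to 1.86), so the groups overlapped and only the Myc-TRIM40 library of experiment 1 stood apart. SERPING1 (gene 710, chr11:57365027-57382326) had 12 reads, or 0.0940 FPKM, in that same library and 0 reads in the other 3. Against a floor of 3 reads it was 3.89-fold higher in experiment 1, and its exact counting interval began at 2.71. CFI (gene 3426, chr4:110661848-110723381), the protease that inactivates C3b, had 0 reads in all 4 libraries, which allows up to 0.0204 to 0.0225 FPKM depending on the library. The Myc-TRIM40 library of experiment 1 also had reads in the most genes, 17323 against 16540 to 16829, and the highest sums of the hepatocyte, fibroblast and endothelial markers given above, and the part of these in the low-count values was not tested.

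CD55 encodes decay-accelerating factor, which dissociates C3 convertases on the cell surface. The gene (1604, chr1:207494817-207534311) had 17.6 and 39.0 FPKM in control and Myc-TRIM40 of experiment 1 and 22.3 and 24.6 FPKM in experiment 2, from 3027, 6715, 4284 and 4256 reads. Both Myc-TRIM40 libraries were above the control libraries on FPKM, but on normalized reads the groups overlapped. The normalized ratio was 2.16 (2.07 to 2.26) in experiment 1 and 0.985 (0.943 to 1.03) in experiment 2. In edgeR the log2 fold change was 0.54 (standard error 0.29, adjusted p = 0.888), and without experiment 1 its sign turned, to -0.02.

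CD46, membrane cofactor protein, was the highest of the 9 genes in every library. The gene (4179, chr1:207925383-207968861) had 73.4 and 85.9 FPKM in experiment 1 and 89.0 and 105.7 FPKM in experiment 2, from 14952, 17562, 20098 and 22102 reads. The control library of experiment 2 was above the Myc-TRIM40 library of experiment 1, so the groups overlapped, while the ratio within an experiment was 1.14 (1.12 to 1.17) and 1.09 (1.07 to 1.11). The edgeR log2 fold change was 0.16 (standard error 0.20, adjusted p = 0.909).

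CD59 encodes protectin, which blocks assembly of the membrane attack complex. The gene (966, chr11:33724556-33758025) had 29.4 and 34.2 FPKM in experiment 1 and 43.6 and 38.1 FPKM in experiment 2, from 14051, 16389, 23141 and 18706 reads. The experiments went opposite ways, with a ratio of 1.14 (1.11 to 1.16) in experiment 1 and 0.801 (0.786 to 0.817) in experiment 2. The edgeR log2 fold change was -0.07 (standard error 0.22, adjusted p = 0.969) and 0.01 with limma on log2(FPKM + 1).

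The study formed fold changes on FPKM + 1 within each experiment and selected genes that changed in common. The same measure was computed here, with 1.5-fold in both experiments as the threshold. None of the 9 genes passed, against 0.457% of all tested genes higher and 0.0874% lower. In experiment 1, CFB (4.71) and CD55 (2.15) passed, 2 of 6, where 2.78% of all genes did. In experiment 2, 0 of 6 passed, where 8.54% of all genes did, and CFB was just under the threshold at 1.49. With a pseudocount of 0.1 or on TPM (FPKM rescaled to a common total), CFB passed in both experiments, where 1.74% of all genes passed with that pseudocount and 1.10% on TPM.

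The transcripts of the membrane regulators were divided differently between libraries. For CD46, variants a, b, l and n held 29.8% and 30.8% of the reads in control and Myc-TRIM40 of experiment 1 but 5.40% and 4.72% in experiment 2. Variant f was the largest, with 33.8%, 31.9%, 42.7% and 42.5% in the same order, and variant d held 15.6%, 14.4%, 21.3% and 22.1%. The CD46 makeup was thus close between conditions within an experiment and differed between the experiments.

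For CD59, variants 1, 3, 5 and 8 together had 922, 923, 5622 and 968 reads, so the control library of experiment 2 stood apart. They made up 24.3% of CD59 reads there and between 5.17% and 6.56% elsewhere. Variants 2 and 4 together had 13098, 15436, 17519 and 17699 reads, a normalized ratio of 1.15 in experiment 1 and 1.00 in experiment 2. The lower CD59 total of Myc-TRIM40 in experiment 2 therefore lay in the minor variants, whose ratio was 0.171, and not in the pair that held most reads. Variant 2 alone held 68.2%, 68.0%, 56.1% and 64.2% of the reads, and variant 4 held 25.0%, 26.2%, 19.6% and 30.5%.

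For CD55, variant 1 held 63.5% and 83.1% of the reads in control and Myc-TRIM40 of experiment 1, and 81.3% and 45.5% in experiment 2. Its normalized ratio was 2.82 in experiment 1 and 0.551 in experiment 2. The other variants summed to 1104, 1136, 802 and 2319 reads, ratios of 1.00 and 2.87, so the near-equal CD55 totals of experiment 2 were made of opposite differences. Variant 2 held 30.0%, 9.59%, 7.54% and 18.5%. No transcript share was tested, the groups of variants were chosen after their values were seen, and estimated reads depend on how the authors' software divided reads between overlapping transcripts. Wilson 95% bounds, which cover counting error only, lay within 0.762, 1.73 and 0.775 percentage points of every share of CD46, CD55 and CD59.

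**Figure D3:**
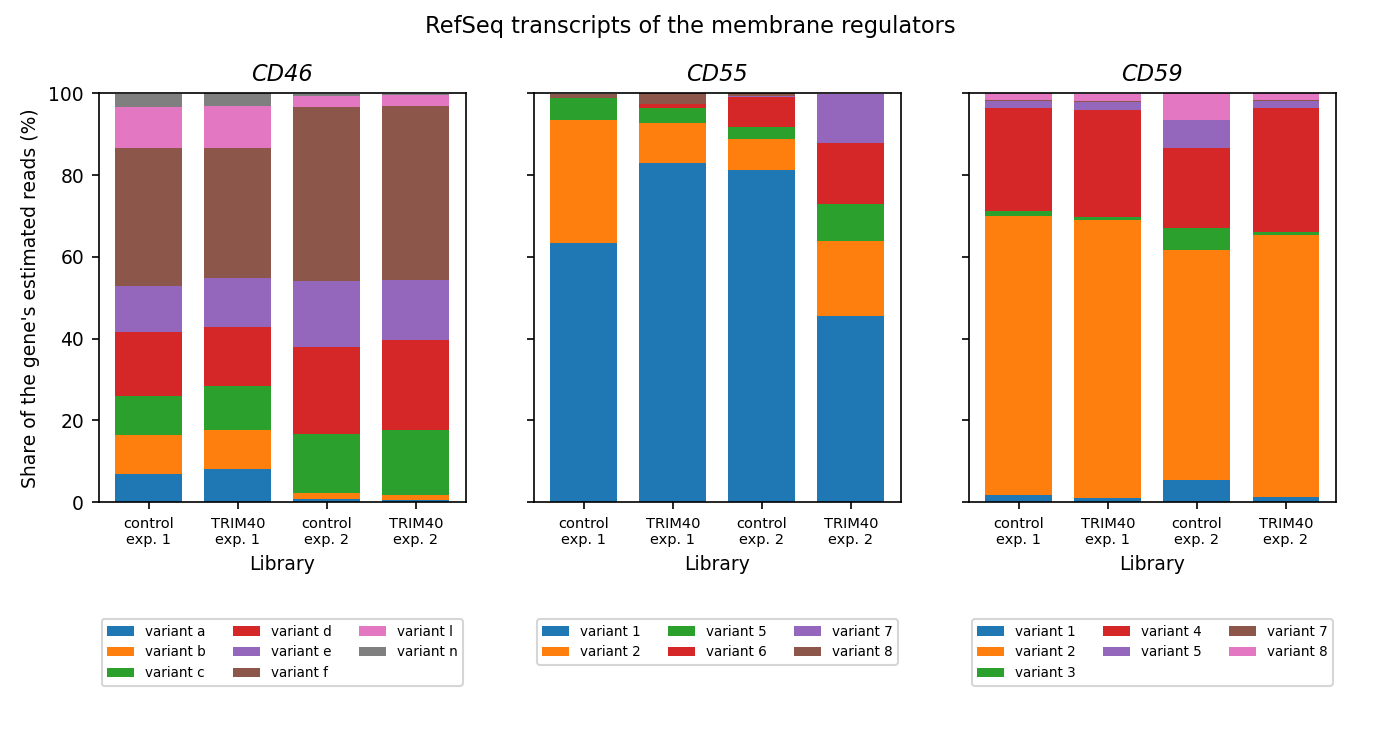
Share of the estimated reads of CD46, CD55 and CD59 (percent, stacked to 100) held by each RefSeq transcript variant in each of the 4 libraries. The CD46 columns pair by experiment, the control library of experiment 2 stands apart for CD59, and variant 1 of CD55 is at 83.1% in Myc-TRIM40 of experiment 1 and 45.5% in Myc-TRIM40 of experiment 2.

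Of 51 other complement genes, 14 were tested, 27 had 0 reads in every library and 10 had some reads but were not tested. edgeR called 0 of the 14, DESeq2 and limma called 0 as well, and edgeR had 0 with an unadjusted p under 0.05, against 4.54% of all genes. Their median log2 fold change was 0.24. Both Myc-TRIM40 libraries were above the control libraries for C5 and SUSD4 and below them for CFD and CFHR3, 2 of 14 each way, against 15.2% and 6.48% of all tested genes. SUSD4 passed the filter only through its reads in the Myc-TRIM40 libraries, so these counts and the median are descriptions only.

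The highest of these was C1QBP, which encodes a mitochondrial protein that also binds C1q, at 195.9 and 181.7 FPKM in experiment 1 and 282.9 and 234.1 FPKM in experiment 2. CLU, encoding clusterin, which binds terminal complement complexes, had 4.09, 6.85, 3.93 and 4.06 FPKM. Both overlapped between the groups. C1RL, which encodes a protease related to C1r, was far above C1R at 10.5, 10.4, 6.18 and 7.98 FPKM. C4BPB, the beta chain of C4b-binding protein, had 3.40, 7.10, 6.94 and 6.45 FPKM. In experiment 1 CLU and C4BPB passed 1.5-fold on FPKM + 1, and in experiment 2 none of the 14 did.

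Of 10 genes for transcription factors known to act on complement promoters, all were tested with edgeR adjusted p between 0.395 and 0.998, and 3 passed 1.5-fold on FPKM + 1 in both experiments, against 0.457% of all genes. IRF9, a DNA-binding factor of the interferon response that acts at ISREs, had 9.17 and 41.4 FPKM in experiment 1 and 8.18 and 15.9 FPKM in experiment 2, and its edgeR log2 fold change was 1.49 with a standard error of 0.32 (adjusted p = 0.395). For IRF9, as for CFB, both ratios were above 1 and the ratio of experiment 1 was the larger, and the study had listed this gene too. CEBPB, a factor of acute-phase genes, had 21.6 and 37.2 FPKM in experiment 1 and 1.21 and 28.9 FPKM in experiment 2. Its ratio of FPKM + 1 was 1.69 in experiment 1, and the ratio of 13.5 in experiment 2 rests on the low control library there.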

How the data were processed

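RNA was sequenced in HT-29 cells with a control vector or Myc-TRIM40, 2 libraries per condition. Estimated counts of reads were deposited for each RefSeq transcript, as whole numbers without normalization. The authors also deposited FPKM, and for experiment 2 TPM. TPM for experiment 1 was computed here from FPKM. The other deposited values were transcript lengths in bases. The submitters' processing notes name HISAT2 2.1.0, StringTie 1.3.4d and hg19, with no role or order given.

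The 63714 transcripts were summed to 27685 genes. edgeR 4.0.16 (glmQLFit and glmQLFTest, R 4.3.3) was run with TMM normalization on 14868 genes kept by filterByExpr, with Benjamini-Hochberg adjustment and the replicate number as a block. Libraries were paired by the replicate numbers of the labels, and each deposited table holds 1 pair. Deviations of same-numbered libraries from their group means correlated at 0.45. An exact permutation test of 2 against 2 cannot go below 0.333 and was not used. The intervals of ratios are exact, at 95%, and cover counting error only, since reads without molecular identifiers are not independent molecules. The alternatives were no block, DESeq2 1.42.0, upper-quartile normalization, no filter, limma 3.58.1 on log2(FPKM + 1), a pseudocount of 0.1, TPM, median-centred ratios, a threshold of 2, a mean FPKM of at least 1, overlapping genes added, and each replicate left out.

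On simulated counts for 14874 genes, the edgeR fit of Myc-TRIM40 against control vector found 106 of 107 genes changed 4-fold and 28 of 93 genes changed 2-fold, with 10 false calls. The simulation gave all genes the same dispersion and each changed gene the same fold in both experiments. Only genes above a minimum of expected reads were changed. These shares therefore do not hold for genes with few reads or with folds that differ between experiments. A gene that was not called is not shown to be unchanged.

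Named were the 9 genes, TRIM40 and the markers, the 5 other complement genes with the highest mean FPKM and any called or past 1.5-fold in both experiments, transcription factor genes past 1.5-fold in both, overlapping genes, and transcripts with at least 20% of a gene's reads. Some results that this rule covers are not reported here. Other complement genes named outside it were chosen after their values were seen. The 9 genes and all lists were chosen with earlier results of these data known.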

Additional observations from a re-analysis of the deposited data

How the results depend on the processing

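With edgeR, 0 of the 9 genes were called with the replicate block and 0 with no replicate block, where the log2 fold change of CFB was 2.22, and 2 each had an unadjusted p under 0.05. DESeq2 with the replicate block called 1, CFB. Across all genes DESeq2 called 44 higher and 9 lower, edgeR with the replicate block 6 and 3, edgeR with no replicate block 0 and 0, and limma 3 and 0. The count of the 9 genes past 1.5-fold in both experiments was 0, and 1 (CFB) with a pseudocount of 0.1 and 1 (CFB) on TPM, while the genes that passed higher among all tested went from 68 to 259 and 164. With 1 replicate left out it ranged from 0 to 2, the 2 being CFB and CD55 without replicate 2. The same count over the other complement genes was 0, and 1 (SUSD4) with a pseudocount of 0.1, and it ranged from 0 to 2 with 1 replicate left out, the 2 being C4BPB and CLU without replicate 2. The log2 fold change of CD59 was -0.07 in edgeR and turned to 0.0123 with limma. That of CFB was 2.85 without replicate 2 and 0.80 without replicate 1, and the cause was not tested. Upper-quartile normalization and no filter changed no call of the 9 genes. Adding overlapping genes could change nothing, since the only such gene, MIR5096, had 0 reads. Its span (chr1:16197644-235881413) runs from the lowest start to the highest end of its entries, so the overlap may be nominal. The replicate block changed no call of the 9 genes in edgeR, while across all genes edgeR made no call without it. The number of experiments limits every fold change, and depth limits C3, C1R, C1S, SERPING1 and CFI.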

Other observations

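Regulators of complement lie in a cluster on chromosome 1, where C4BPB (207262187 to 207273337, hg19), C4BPA (207277607 to 207318317), CD55 and CD46 follow each other, with CR1 and CR2 at 0 reads in every library. As ratios of normalized reads in experiment 1, C4BPB was 2.12-fold (95% exact counting interval 1.80 to 2.51), C4BPA 1.36-fold (1.02 to 1.82), CD55 2.16-fold and CD46 1.14-fold higher with Myc-TRIM40. In experiment 2 the ratios were 0.885 (0.775 to 1.01) for C4BPB, 0.957 (0.755 to 1.21) for C4BPA, 0.985 for CD55 and 1.09 for CD46. The 4 genes were thus above 1 in experiment 1, and CD46 alone of them was above 1 in experiment 2, and no difference between experiments was tested. Ratios above 1 were common among all tested genes. Their median log2 ratio of FPKM + 1 was 0.025 in experiment 1 and 0.076 in experiment 2. The cluster was chosen after its values were seen, so the count is a description only.

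CFD encodes factor D, the protease that cleaves factor B. It had 2.31 and 1.88 FPKM in experiment 1 and 2.25 and 1.25 FPKM in experiment 2, so both Myc-TRIM40 libraries were below both control libraries, and its edgeR log2 fold change was -0.65 with a standard error of 0.33 (adjusted p = 0.888). C5, whose cleavage starts the terminal pathway, had 0.508 and 0.672 FPKM and 0.470 and 0.667 FPKM, both Myc-TRIM40 libraries above, and its edgeR log2 fold change was 0.33 with a standard error of 0.28 (adjusted p = 0.888). CFHR3, whose reads may be divided uncertainly among near-identical paralogs, had 46, 24, 47 and 27 reads. Of the C1q chain genes C1QA, C1QB and C1QC, and of the lectin pathway genes MBL2, FCN1, FCN2, FCN3 and MASP1, none had a read in any library, while COLEC10 had 5 to 11 reads, COLEC11 0 to 10 and MASP2 0 to 3.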
